A study of Rattus norvegicus with 24 samples.

Results

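The let-7 microRNAs are described here in peripheral blood mononuclear cells (PBMC) of rats with and without arthritis. The members are the 7 guide strands of the family on an Agilent rat microRNA array: rno-let-7a, rno-let-7b, rno-let-7c, rno-let-7d, rno-let-7e, rno-let-7f and rno-let-7i, written without the species prefix below. They were chosen by name, as the rows of the array whose miRNA name is exactly one of these, so the passenger (star) strands are not members. They are 7 of the 677 miRNAs on the array. All 7 were detected on all 24 arrays, and all passed the filter on detection that left 210 miRNAs for testing.

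The blood came from female Wistar rats, and the age of the animals is not given in the sources used here. Collagen-induced arthritis (CIA) is a model of rheumatoid arthritis in which the animal is immunised with bovine type II collagen in adjuvant. NOCIA animals (called NORA in the labels) were healthy, and CIA animals (called RA) were arthritic and untreated. Both were sampled before therapy. Other arthritic animals, in 4 arms, were sampled 1 hour into treatment or at 34 days, and NOCIA animals were sampled at both times. MS (called AP in the labels) was mechanical stimulation with a subcutaneous needle that was inserted and twirled, and MTX was an injection of methotrexate, an antifolate drug. PLA was an injection of saline. ANE animals had isoflurane in place of ether at blood sampling and no therapy, so they differ from PLA by both the anaesthetic and the absence of an injection. All animals were shaved, and all were killed at sampling, so that no animal was followed over time. There were 12 groups of 2 arrays, each array with RNA of a separate blood sample. For NOCIA at 34 days, 1 line of the label gives 1 hour, whereas the title and another line give 34 days, which was used.

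The let-7 guides are among the most conserved animal microRNAs. A guide strand is loaded into an Argonaute protein and leads it to messenger RNAs that pair with the seed, the bases near its 5′ end, and those messengers are then repressed. The family is known for repressing growth and stemness genes such as Lin28, Hmga2, Myc and Ras genes, and the RNA-binding protein Lin28 in turn blocks the maturation of let-7 precursors. In blood cells let-7 guides are abundant in mature lymphocytes and monocytes, and cytokines such as interleukin-6 are among the targets reported for them.

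The sequences are shown first, because the members differ by few bases and the array has to tell them apart. All 7 matched a mature sequence in the RefSeq table of the rat genome build GRCr8, each of 22 bases. Capitals mark the seed, bases 2 to 8 from the 5′ end. miR-98, which carries the same seed under another name, is given beside them.
let-7a: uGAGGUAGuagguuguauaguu
let-7b: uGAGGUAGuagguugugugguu
let-7c: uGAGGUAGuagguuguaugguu
let-7d: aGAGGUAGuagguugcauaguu
let-7e: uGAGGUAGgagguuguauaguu
let-7f: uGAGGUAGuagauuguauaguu
let-7i: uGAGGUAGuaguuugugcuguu
miR-98: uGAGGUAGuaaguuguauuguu

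The 7 members had 1 seed in common. Positions are counted from the 5′ end, and each change is written with the base of let-7a first. let-7c differed from let-7a by A19G, let-7e by U9G and let-7f by G12A, a single base in each case. let-7b differed by A17G and A19G, and let-7d by U1A and U16C. let-7i was the farthest, with G12U, A17G, U18C and A19U. miR-98 differed by G11A and A19U. Each member was read by 2 probes with 10 spots each. Whether the probes separate guides that differ by 1 base was not measured on these arrays.

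The members came from 10 loci in GRCr8. let-7a-1 (chr17:16320145-16320166, plus strand), let-7f-1 (chr17:16320508-16320529, plus strand) and let-7d (chr17:16322273-16322294, plus strand) lay within 2128 bases of each other, inside the bounds of the long non-coding RNA gene LOC120097935. let-7c-2 (chr7:118683636-118683657) and let-7b (chr7:118684044-118684065) lay 408 bases apart on the plus strand of chromosome 7, inside no annotated gene other than microRNA genes. let-7i lay alone at chr7:60527935-60527956 on the minus strand, inside the bounds of LOC134479799. let-7e (chr1:67350243-67350264, plus strand) lay 173 bases after miR-99b and 446 bases before miR-125a, inside the bounds of Spaca6. let-7c-1 (chr11:29688127-29688148) lay in a similar cluster with miR-99a and miR-125b-2. A second let-7a locus lay at chr8:50805219-50805240, near miR-100. A second let-7f locus lay at chrX:24460052-24460073, 611 bases before miR-98 and inside the bounds of Huwe1. The gene table gives bounds only, so whether a locus is exonic or intronic is not stated. let-7a, let-7c and let-7f each have 2 loci with 1 mature sequence, and the array cannot say which locus a signal comes from.

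Values below are log2 of the total signal of a miRNA after each array was scaled to the same 75th percentile over the 132 miRNAs detected on all arrays, and are called levels. A difference is the first group's mean level minus the second's. It was tested with limma, and a call means an adjusted p under 0.05 over the 210 miRNAs. The arrays lay on 3 slides of 8. Slide 2 held NOCIA before, CIA before, NOCIA at 34 days and ANE at 34 days. Slide 3 held NOCIA, MS, MTX and PLA at 1 hour. Slide 1 held the 34-day MS, MTX and PLA arrays and ANE at 1 hour. Each group lay on 1 slide, so that group and slide cannot be told apart in a comparison across slides. Each array had 145 to 207 miRNAs detected, whose intensities summed to between 137544 and 519917. MS at 34 days replicate 1 had the highest sum, followed by MS at 1 hour replicate 1 with 371061. The 7 members held 14.5% to 19.7% of the summed intensity of an array.

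After scaling, all members but let-7e were among the steadier miRNAs on these arrays. The scaling is set at bright miRNAs, and 6 of the 7 members lay above its 75th percentile on every array. Its part in the narrow ranges was not tested. From the lowest to the highest of the 24 arrays, let-7c ran over 0.60 on the log2 scale (11.07 to 11.67) and let-7b over 0.65 (10.88 to 11.53). let-7a ran over 0.69 (12.78 to 13.48), let-7f over 0.74 (12.98 to 13.72), let-7i over 0.91 (12.09 to 13.00) and let-7d over 0.95 (11.86 to 12.81). let-7e had the widest range of the family at 1.45 (6.54 to 7.98). The median range over the 132 miRNAs detected on all arrays was 1.33, so 6 members lay under the median and let-7e above it. Spread between replicates is given next. Pooled over the 12 groups, the SD within a group was 0.11 for let-7a and let-7c, 0.12 for let-7b, 0.13 for let-7f, 0.15 for let-7i, 0.19 for let-7d and 0.31 for let-7e, against a median of 0.28 over the 132 miRNAs. Before scaling, the highest array exceeded the lowest by 3.92-fold for let-7f and by 7.69-fold for let-7e, the ends of the range over members.

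**Figure D1:**
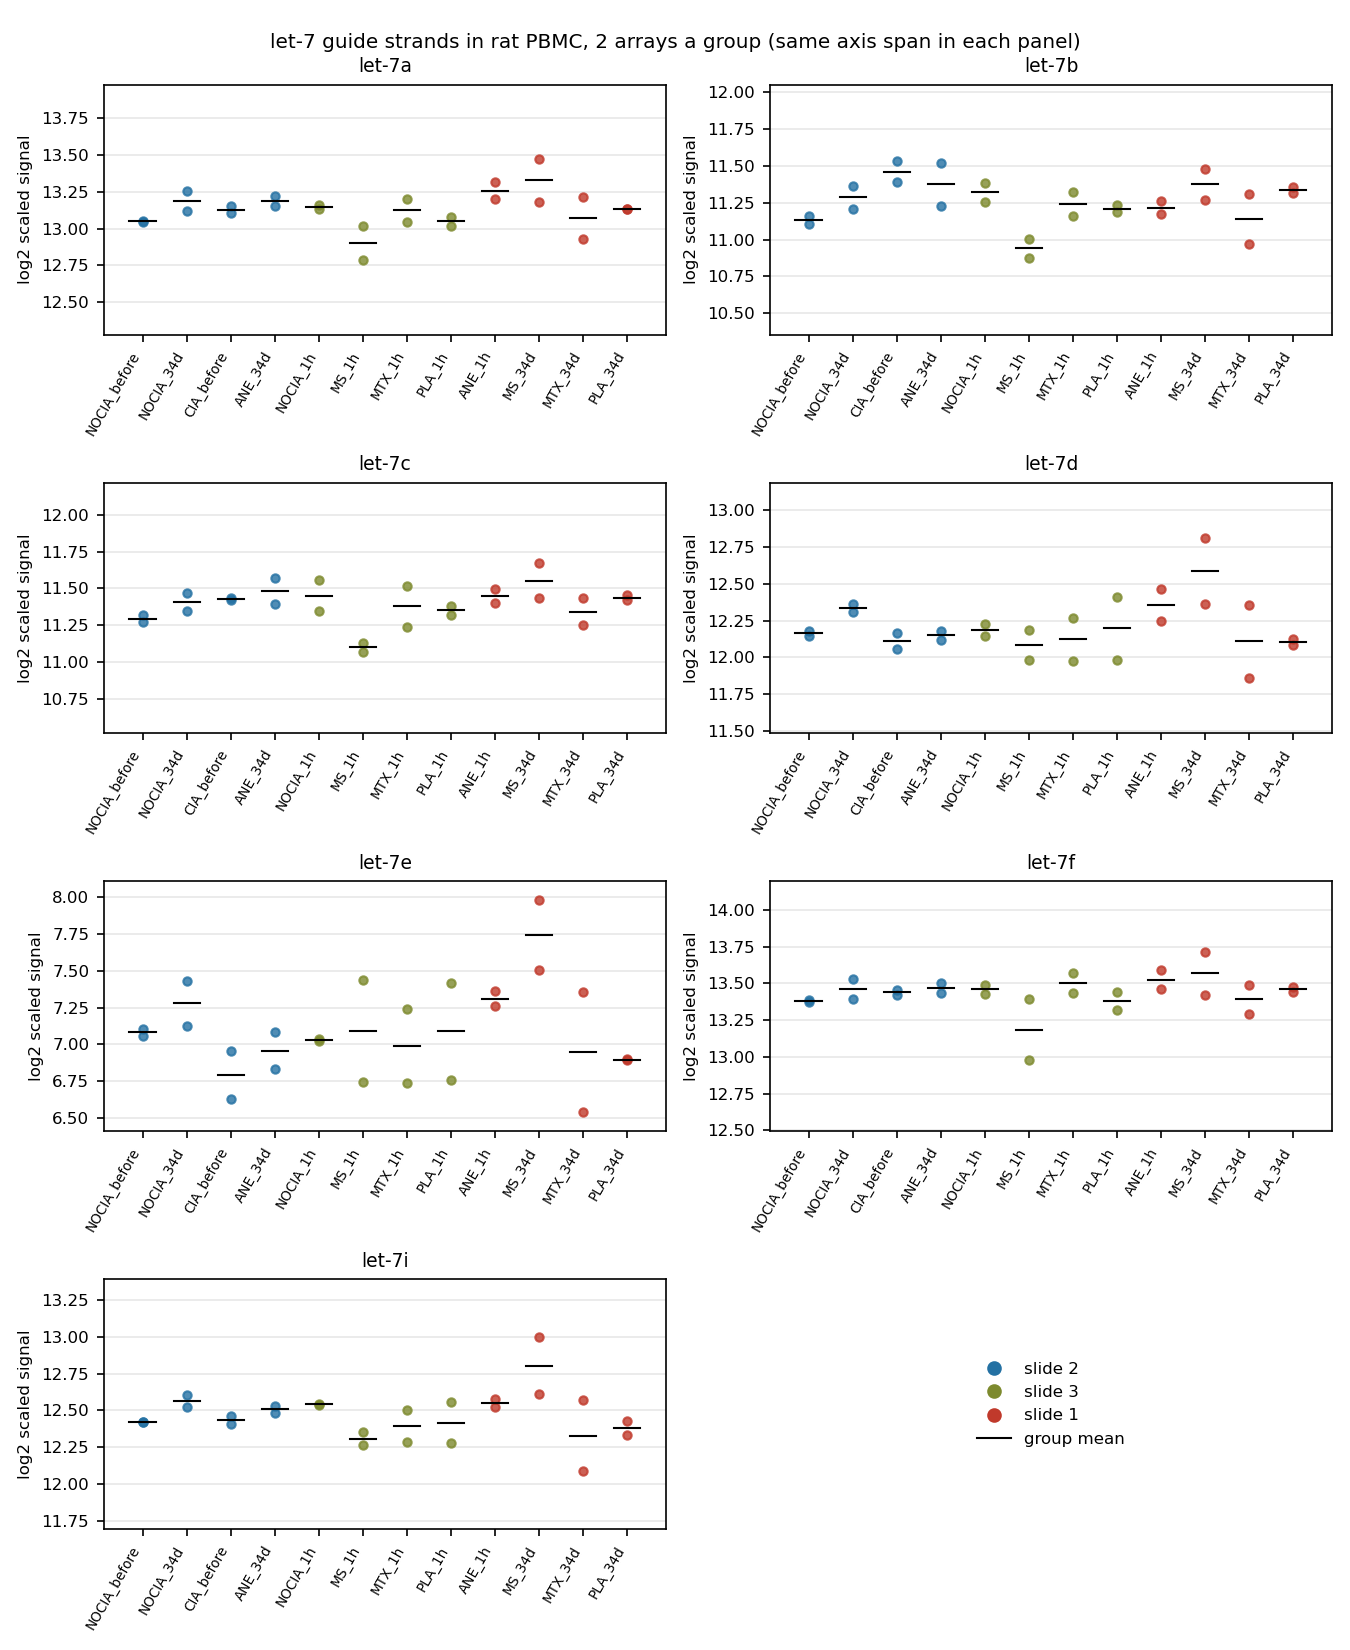
Level of each let-7 member (log2 scaled signal, vertical axis) on each of 24 arrays, by group (horizontal axis) and slide (colour), with the group mean as a bar and the same axis span in each panel. let-7e and let-7d were highest in MS at 34 days, where let-7e read 7.98 and 7.51, and let-7c read 11.07 and 11.13 in MS at 1 hour, its lowest group.

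let-7e, which is encoded together with miR-99b and miR-125a, was the member that varied most. In healthy animals it read 7.06 and 7.11 before therapy, 7.02 and 7.04 at 1 hour, and 7.43 and 7.13 at 34 days. In untreated CIA it read 6.63 and 6.95, both under all 6 NOCIA arrays. At 1 hour it read 7.43 and 6.75 in MS, 7.24 and 6.74 in MTX, 6.76 and 7.42 in PLA, and 7.36 and 7.26 in ANE. The MS, MTX and PLA arrays at 1 hour thus had 1 high and 1 low array each and overlapped. At 34 days it read 7.98 and 7.51 in MS, 7.36 and 6.54 in MTX, 6.89 and 6.90 in PLA, and 7.09 and 6.83 in ANE. Both MS arrays at 34 days were above all 22 others. How many of the 210 miRNAs had such orders was not counted. For 43.3% of them both MS arrays were above both PLA arrays at 34 days. In the order of group means from MS at 34 days (7.75 ± 0.34, SD, n = 2) to CIA before (6.79 ± 0.23, SD, n = 2), only 2 of the 11 neighbouring pairs did not overlap. These were MS at 34 days over ANE at 1 hour, and NOCIA before over NOCIA at 1 hour. Here and below, separated neighbours were not counted for miRNAs outside the family.

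let-7d and let-7i followed a similar order. let-7d read 12.81 and 12.36 in MS at 34 days, 12.46 and 12.25 in ANE at 1 hour, 12.08 and 12.12 in PLA at 34 days, and 12.06 and 12.17 in CIA before. let-7i read 13.00 and 12.61 in MS at 34 days, 12.33 and 12.43 in PLA at 34 days, and 12.41 and 12.46 in CIA before. Both MS arrays were above the PLA and CIA arrays for both guides. In MTX at 34 days the replicates lay far apart, at 12.36 and 11.86 for let-7d and at 12.57 and 12.09 for let-7i. No neighbouring pair of groups was separated for let-7d, and 3 of 11 were for let-7i.

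let-7a, let-7c and let-7f moved less under the scaling used here. In MS at 34 days let-7a read 13.48 and 13.18, let-7c 11.67 and 11.44, and let-7f 13.72 and 13.42, the highest group mean for each. Replicate 1 was the higher in each case. In MS at 1 hour let-7a read 12.78 and 13.02, let-7c 11.07 and 11.13, and let-7f 12.98 and 13.39, the lowest group mean for each. That place rests on the scaling. let-7a in MS at 1 hour was below CIA before in 12 of 17 settings, and those in which it was above all used another scaling. No neighbouring groups were separated for let-7a or let-7f, and 1 pair was for let-7c.

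let-7b was the only member whose highest group was not MS at 34 days. Its highest group was CIA before, at 11.39 and 11.53, in which let-7e was at its lowest. The arrays of CIA before and MS at 34 days overlapped for let-7b. Like all members but let-7e, let-7b was lowest in MS at 1 hour. It read 11.16 and 11.11 in NOCIA before, 10.88 and 11.01 in MS at 1 hour, and 11.48 and 11.27 in MS at 34 days. The level of let-7b in MS at 34 days lay inside the range of the other groups.

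The profiles of the members over the arrays were compared in pairs. Over the 24 arrays Pearson's r was 0.93 for let-7a with let-7f, 0.89 for let-7a with let-7c, and 0.84 for let-7c with let-7f. It was 0.94 for let-7d with let-7i, 0.93 for let-7d with let-7e, and 0.84 for let-7e with let-7i. Across these 2 sets, let-7a with let-7i reached 0.82, close to the lowest value within them. let-7b followed let-7c (r = 0.88) and was least like let-7e (r = 0.17). Arrays share slides and a common scaling, so these are descriptions without a test. The 4 pairs that differ by 1 base had a median r of 0.88, against 0.73 over the 5 pairs at 2 bases, 0.59 over the 6 at 3 and 0.67 over the 4 at 4. The 1 pair at 5 bases, let-7e with let-7i, had r = 0.84. The 1 pair at 6 bases, let-7d with let-7i, had 0.94, the highest of all pairs. let-7a and let-7e differ by 1 base with r = 0.52. let-7d shares the chromosome 17 cluster with let-7a-1 and let-7f-1, and its r was 0.73 with let-7a and 0.55 with let-7f.

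**Figure D2:**
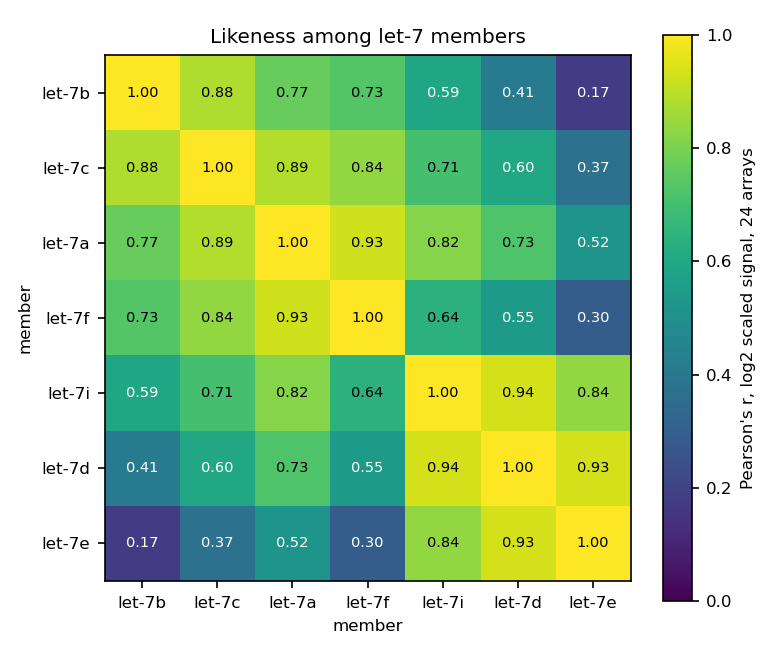
Pearson's r of the level between each pair of let-7 members over 24 arrays (both axes list the members, colour and number give r). Within let-7a, let-7c and let-7f and within let-7d, let-7e and let-7i r was at least 0.84, let-7a with let-7i had 0.82, and let-7b with let-7e had r = 0.17.

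Arthritic and healthy cells were compared before therapy, on 1 slide. No member passed the test, against 0.952% of the 210 miRNAs called. let-7b was 0.33 higher in CIA (SE 0.15, n = 2 against 2, limma adjusted p = 0.578, unadjusted 0.041), and its unadjusted p was the only one of the family under 0.05, against 7.62% of all miRNAs. let-7e was 0.29 lower (SE 0.31). For 4 members both CIA arrays were above both NOCIA arrays (27.6% of all miRNAs), and for let-7e both were below (31% of all). The median difference was 0.06 over the members and -4.9e-04 over the 210 miRNAs.

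Healthy animals were compared at different times without therapy. The 2 arrays before therapy were the dimmest of all 24 (summed intensity 137544 and 138064, against 206949 and 226165 at 34 days), and the part of brightness was not tested. At 34 days both NOCIA arrays were above both arrays of the first sampling for all 7 members, and so they were for 47.1% of the 210 miRNAs. The differences ran from 0.08 (let-7f) to 0.20 (let-7e), with a median of 0.14 against 0.12 over all miRNAs. None was called (limma adjusted p at least 0.811, 0.952% of all called). let-7c, let-7d and let-7i each lost this sign in 1 of 18 settings. At 1 hour, across slides, 5 members were above (36.2% of all) and let-7e below (15.2% of all), with differences of -0.05 to 0.19 and no call (2.38% of all called).

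At 1 hour of treatment the comparison with PLA lay within slide 3. In MS, 6 of 7 members were lower than in PLA, by up to 0.27 (let-7b), and let-7e differed by 0.0019. None was called, against 0.952% of all miRNAs, and the median of -0.15 lay beside a median of -0.22 over all 210. For let-7b and let-7c both MS arrays were below both PLA arrays, as for 21.4% of all miRNAs. Under the 6 other scalings the median over all miRNAs was above 0, from 0.03 to 0.54, so that directions in this comparison rest on the scaling. let-7a, let-7d and let-7i were lower in 12 of 18 settings, let-7f in 13, let-7c in 15 and let-7b in 16. Most of those settings kept the scaling used here, so the counts do not measure agreement among scalings. In MTX the members differed from PLA by -0.10 to 0.12, with no call (0% of all called) and the groups overlapped for every member. PLA differed from NOCIA at 1 hour by -0.13 to 0.06, with no call (0% of all called). let-7a and let-7b were lower in both PLA arrays (7.62% of all).

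Against CIA before, which lay on another slide, the members in MS at 1 hour ran from -0.52 for let-7b (SE 0.15, n = 2 against 2, limma adjusted p = 0.166) to 0.30 for let-7e (SE 0.31). let-7c was at -0.33 (SE 0.13, adjusted p = 0.364). Both had unadjusted p-values under 0.05, as had 12.9% of all miRNAs, and 0% passed the adjusted threshold. Without MS at 1 hour replicate 2, let-7b was at -0.58 and passed (adjusted p = 0.043), with 16.2% of all miRNAs called. 5 members were below CIA on both arrays (19.5% of all miRNAs). Without scaling between arrays the signs of let-7b and let-7c turned, to 0.37 and 0.56. In ANE at 1 hour 5 members were above CIA on both arrays (36.2% of all) and let-7b was below (19% of all). The largest difference was 0.52 for let-7e, with no member called (0.476% of all). In PLA 3 members were below (12.4% of all) and in MTX only let-7b was (7.62% of all). No member was called in either, against 0.952% and 1.43% of all miRNAs.

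At 34 days MS was compared with PLA on slide 1, so that both groups shared slide and scan. let-7e was 0.85 higher in MS (SE 0.31, 95% interval 0.19 to 1.5), let-7d 0.49 higher (SE 0.20, 0.07 to 0.91) and let-7i 0.42 higher (SE 0.17, 0.06 to 0.78). None passed the test, with limma adjusted p-values of 0.070, 0.085 and 0.083. Nor did any other of the 210 miRNAs (0% called), although 40% had an unadjusted p under 0.05. let-7a was 0.19, let-7c 0.12, let-7f 0.11 and let-7b 0.04 higher. For 4 members (let-7a, let-7d, let-7e, let-7i) both MS arrays were above both PLA arrays, as for 43.3% of all miRNAs, and the median over the members was 0.19 against 0.21 over all. The call turned on 1 array: without MS at 34 days replicate 2, the replicate with the lower levels, 3 members passed (let-7d, let-7e and let-7i, adjusted p 0.024, 0.032 and 0.024), as did 43.3% of all miRNAs. Without replicate 1 let-7d fell to 0.26, let-7e to 0.61 and let-7i to 0.23, with adjusted p-values of 0.629, 0.585 and 0.619.

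MS and MTX, the 2 active treatments, were also compared at 34 days on slide 1. All 7 members were higher in MS, by 0.18 (let-7f) to 0.80 (let-7e, SE 0.31). let-7d was 0.48 (SE 0.20) and let-7i 0.47 higher (SE 0.17). The 3 had unadjusted p-values under 0.05, as had 17.6% of all miRNAs, and the same adjusted p of 0.259, with 0% of all called. With 1 array left out, let-7e ran from 0.39 (without MTX at 34 days replicate 2) to 1.21 (without MTX replicate 1), let-7d from 0.23 to 0.73 and let-7i from 0.23 to 0.72, with adjusted p-values from 0.056 to 1. Without MS replicate 1, let-7d was 0.26 and let-7i 0.28. For 4 members both MS arrays were above both MTX arrays (23.8% of all). MTX differed from PLA by -0.20 to 0.05, with no call (0% of all) and let-7b lower on both arrays (17.6% of all).

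The only call of a member among the comparisons was let-7e in MS at 34 days against CIA before, across slides 1 and 2. let-7e rose by 0.95 (SE 0.31, 95% interval 0.30 to 1.61, n = 2 against 2, limma adjusted p = 0.043), a 1.94-fold higher level. In unscaled signal it read 555 and 263 in MS against 72.2 and 103 in CIA. In this comparison 19% of the 210 miRNAs were called, 15.7% as higher, so 1 member of 7 lay near the background. The other members ranged from -0.08 for let-7b to 0.48 for let-7d (SE 0.20, adjusted p = 0.072), with let-7i at 0.37 (SE 0.17, adjusted p = 0.096), let-7a at 0.20, let-7f at 0.13 and let-7c at 0.12. let-7d, let-7e and let-7i had unadjusted p-values under 0.05, as had 48.6% of all miRNAs. For 4 members both MS arrays were above both CIA arrays (43.3% of all). The median difference was 0.20 over the members and 0.16 over all 210 miRNAs.

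The rise of let-7e kept its sign but not its call. It was positive under all 17 alternatives, from 0.48 to 2.15, and from 0.41 to 1.02 after the median difference of all tested miRNAs was subtracted. Its sign could turn only under another scaling or with an array left out, since the remaining alternatives left the difference at 0.95 by construction. It was called in 6 of the 17. It was not called without CIA before replicate 1 (0.79, adjusted p = 0.154), without CIA before replicate 2 (1.12, 0.115) or without MS at 34 days replicate 1 (0.72, 0.464). Without MS at 34 days replicate 2, let-7d, let-7e and let-7i were called, along with 49% of all miRNAs. Set against the change in healthy animals over the same time, the change in MS was 0.76 larger for let-7e (SE 0.43, limma adjusted p = 0.465), and no member was called, against 0.476% of all miRNAs.

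**Figure D3:**
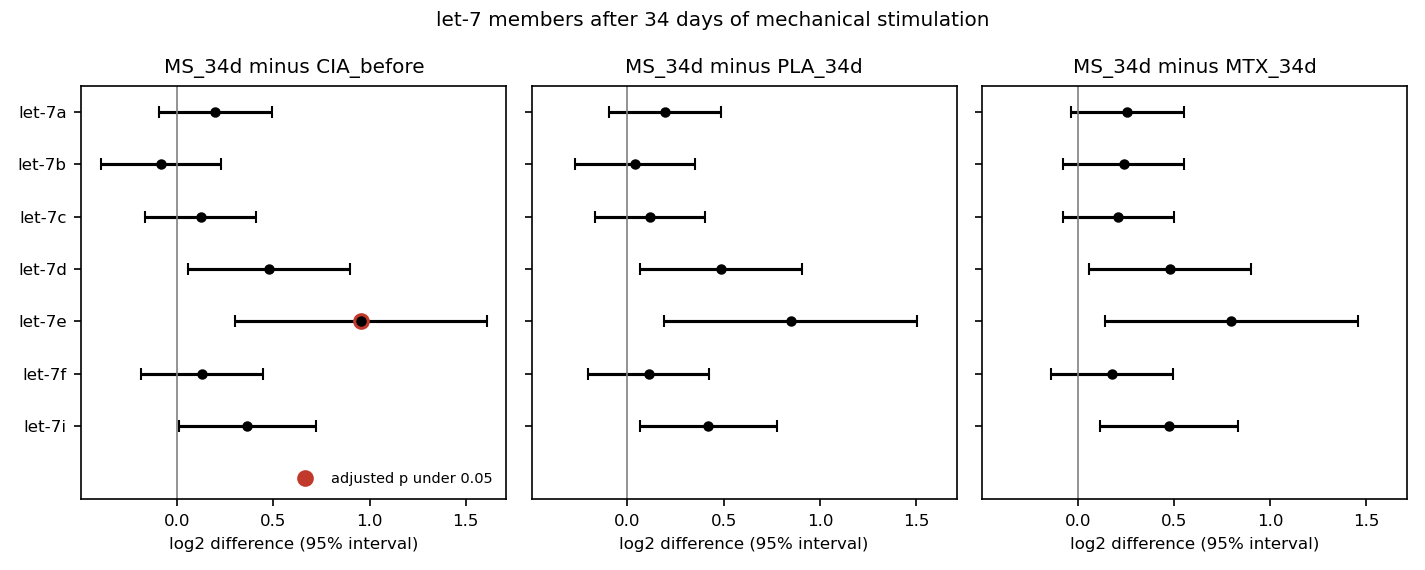
Difference in level of each let-7 member (horizontal axis, log2, with the 95% interval from limma, 2 arrays a group) between MS at 34 days and CIA before, PLA at 34 days or MTX at 34 days. let-7e was farthest from 0 in each panel (0.95, 0.85 and 0.80), and it passed the adjusted threshold only against CIA before, the comparison across slides.

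The remaining comparisons at 34 days gave no call of a member. MTX differed from CIA before by -0.32 (let-7b, SE 0.15, limma adjusted p = 0.658) to 0.16 (let-7e), with 0% of all called. let-7b alone had an unadjusted p under 0.05 (7.14% of all) and was lower on both arrays (16.7% of all). PLA differed from CIA before by -0.12 to 0.11, again with 0% called and let-7b lower on both arrays (12.4% of all). ANE differed from CIA before on the same slide by -0.09 to 0.17, and from NOCIA at 34 days by -0.32 (let-7e) to 0.09, with 0% of all called in both. let-7a and let-7i were above CIA (17.6% of all) and let-7d and let-7e below NOCIA (20.5% of all) on both ANE arrays. Over all 12 groups in a moderated F test no member was called (adjusted p from 0.401 to 0.702, 2.38% of all called). Among the 4 groups of 1 slide the lowest adjusted p was 0.227, for let-7e and let-7i on slide 1 (0.476% of all called). On slides 2 and 3 the lowest were 0.896 and 0.702, with 0.952% of all called on each.

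The brightness of the arrays is given beside these levels. The 4 brightest arrays were MS at 34 days replicate 1, MS at 1 hour replicate 1, MS at 34 days replicate 2 (305171) and MTX at 34 days replicate 1 (303079), on which let-7e read 7.98, 7.43, 7.51 and 7.36. Within groups, the brighter array had the higher let-7e level in 8 of 12 groups, and the higher let-7b level in 5 of 12. Over the 24 arrays the level had an r with log2 summed intensity of 0.74 for let-7e, 0.66 for let-7d and 0.56 for let-7i, the 3 members with the largest differences in MS at 34 days against PLA. It was 0.29 for let-7a, 0.21 for let-7c, 0.04 for let-7f and -0.0020 for let-7b. Among the miRNAs detected on all arrays, the r of let-7e lay at percentile 76.5, that of let-7d at 64.4 and that of let-7i at 56.8. The other members lay between percentiles 42.4 (let-7b) and 49.2 (let-7a). MS at 1 hour replicate 1 had the lowest let-7a of all arrays (12.78) and one of the highest let-7e levels. Relative to the mean of the other 6 members, which a single scaling factor per array cannot move, let-7e was highest on that array (0.61 above its median) and next on MS at 34 days replicate 1 (0.50 above). The part of brightness in the differences was not tested.

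**Figure D4:**
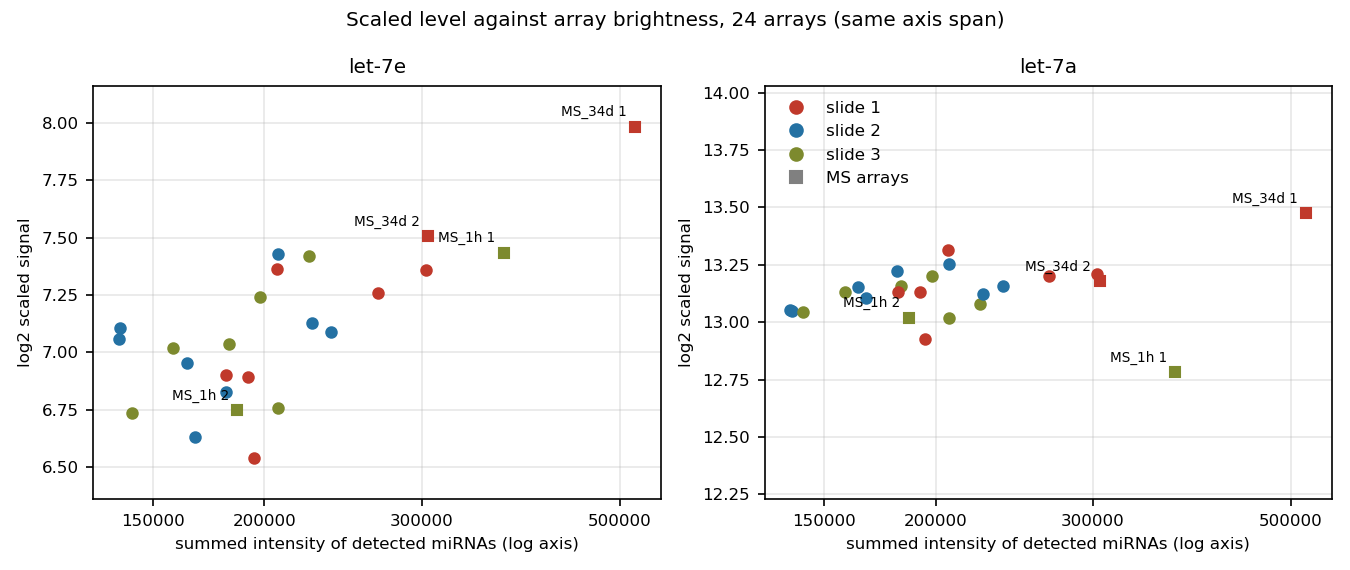
Level of let-7e and of let-7a (vertical axes, log2 scaled signal, same span) against the summed intensity of the detected miRNAs (horizontal log axis) on 24 arrays, coloured by slide, with MS arrays as squares. let-7e read 7.36 to 7.98 on the 4 brightest arrays, and let-7a was at 12.78 on the second brightest, MS at 1 hour replicate 1.

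The 2 probes of a member were also compared. Over the 7 members and the 18 comparisons of 2 groups, both probes had the same sign in 90 of 126 cases, and the median gap between their differences was 0.13. let-7e agreed in sign in 17 of 18 cases. In MS at 34 days against PLA its probes gave 0.84 and 0.85, against CIA 1.07 and 0.90. The probes of let-7d gave 0.67 and 0.39, and those of let-7i 0.51 and 0.28, in MS at 34 days against CIA. Both probes had the same sign, and the gap between them was smaller than either probe's difference.

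miR-98, the seed relative that lies beside let-7f-2 on chromosome X, was detected on all arrays. It read 9.58 and 9.03 in MS at 34 days against 8.92 and 8.79 in CIA before, a difference of 0.45 that was not called (SE 0.19, limma adjusted p = 0.076). Its lowest group mean was in MS at 1 hour, as for 6 of the members. Of the 8 let-7 star strands on the array, 6 were detected on no array. let-7d* was detected on 22 arrays and ran from the floor of 2.53 to 4.42, which it reached in MS at 34 days replicate 1. let-7b* was detected on 11 arrays, among them both arrays of NOCIA, MTX and PLA at 1 hour (all on slide 3) and of ANE at 34 days, where its guide stood within 11.16 to 11.52.

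The miRNAs encoded beside let-7e and let-7c were set against the guides. Beside let-7e on chromosome 1, miR-125a-5p read 6.33 and 5.72 in MS at 34 days against 4.36 and 4.78 in CIA before. It rose by 1.46 (SE 0.43, limma adjusted p = 0.040), and it was called in 8 of 17 alternatives. Leaving out CIA before replicate 1, CIA before replicate 2 or MS replicate 1 ended the call (adjusted p 0.141, 0.115 and 0.464). miR-99b was detected on both MS arrays (4.74 and 3.58, near the floor of 2.53) and on neither CIA array, with a limma adjusted p of 0.052. Its mean in MS was 2.71-fold above a bound on the undetected CIA signal. That bound does not cover the spread between MS arrays. With 1 array left out the difference ran from 0.98 to 2.15. All 3 miRNAs of that cluster had their highest group mean in MS at 34 days. Beside let-7c-1 on chromosome 11, miR-99a read 3.34 and 6.07 in MS at 34 days against 6.59 and 6.55 in CIA, and miR-125b-5p read 5.31 and 6.44 against 6.5 on both arrays. Their differences were -1.86 (SE 0.85, adjusted p = 0.096) and -0.62 (SE 0.48, 0.314), and let-7c, which also has its chromosome 7 locus, differed by 0.12. The first 2 rest largely on MS at 34 days replicate 1, since without it miR-99a was at -0.50 and miR-125b-5p at -0.06, and without replicate 2 they were at -3.22 and -1.19. Of the 4 of the 5 listed cluster partners that passed the filter on detection, 1 was called in this comparison and it was higher. miR-100, beside let-7a-2, was detected on 1 array.

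**Figure D5:**
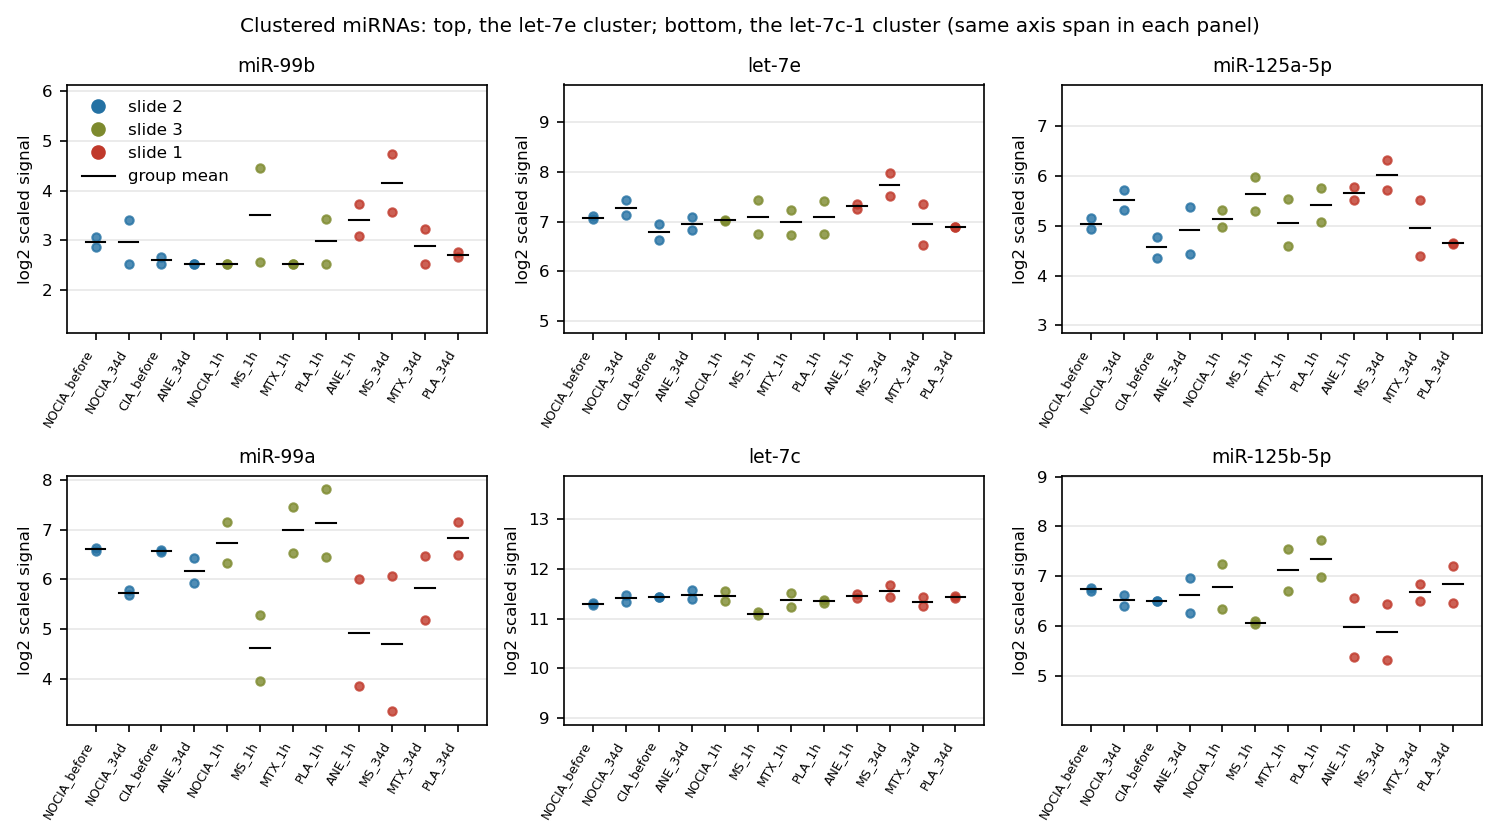
Level (vertical axis, log2 scaled signal, same span in each panel) on each of 24 arrays by group (horizontal axis) and slide (colour), with the group mean as a bar, for miRNAs encoded beside let-7e (top) and beside let-7c-1 (bottom). The 3 miRNAs of the let-7e cluster had their highest mean in MS at 34 days, where let-7e read 7.98 and 7.51, and miR-99a read 3.34 and 6.07 there.

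Outside the family, the miRNAs most like the mean of the 7 members over the 12 group means were miR-23b (Pearson's r = 0.94), miR-107 (0.91), miR-98 (0.91), miR-103 (0.89) and miR-30d (0.89), out of the 125 other miRNAs detected on all arrays. Over the 24 arrays their r was 0.84 to 0.90. let-7d was most like miR-151 (0.96 over groups). let-7e was most like miR-148b-3p, miR-181d and miR-28 (0.96 each), although for miR-28 r fell to 0.64 over single arrays. let-7b was most like miR-140 over groups (0.91), but over single arrays r fell to 0.73, under the 0.88 of let-7b with let-7c. These likenesses are over arrays that share slides and scaling, and no test was made.

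Markers of the cell types in a mononuclear fraction were set beside these results. The pan-leukocyte miR-142-3p was detected on all arrays and read 13.15 to 13.88. Its partner miR-142-5p was detected on all arrays too and read 9.14 to 10.80. In MS at 34 days against CIA before they differed by 0.12 and -0.19. The lymphocyte list held miR-150, miR-342-3p and miR-181a, all 3 detected on every array. Its summed scaled signal was 2041 to 7463 in MS at 34 days against 13781 to 15011 in CIA before and 12459 to 12869 in PLA at 34 days. miR-150 read 9.55 and 12.43 in MS at 34 days, and 10.26 and 13.29 in MS at 1 hour, so that in both MS groups replicate 1 was the low one. Against CIA before miR-150 differed by -2.43 (SE 0.89, limma adjusted p = 0.055), by -0.99 without MS replicate 1 (adjusted p = 0.557) and by -3.87 without MS replicate 2 (0.010). The myeloid marker miR-223 was highest in ANE at 1 hour (13.31 and 13.67), on slide 1. In PLA at 34 days, on the same slide, it read 12.80 and 13.04. It read 13.57 and 13.08 in MS at 34 days against 12.26 and 12.60 in CIA before, on another slide. The rise was 0.89 (SE 0.25, limma adjusted p = 0.038). This call was lost without CIA before replicate 1 (0.72, adjusted p = 0.141), CIA before replicate 2 (1.06, 0.115) or MS replicate 1 (0.65, 0.464). miR-126, a platelet and endothelial marker, read 7.58 and 6.71 against 6.07 and 5.89, a difference of 1.17 (SE 0.47, adjusted p = 0.066). The erythroid pair miR-451 and miR-144 was detected on all arrays, at a summed signal of 4663 to 8725 in MS at 34 days and 4306 to 27062 in CIA before. The hepatocyte marker miR-122 was detected on 9 of 24 arrays and on neither MS array at 34 days. The part of cell composition in the let-7 differences was not tested, and fewer cells of a type and less of a miRNA per cell cannot be told apart in these bulk samples.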

How the data were processed

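Agilent Feature Extraction read the scans, at version 10.7.3.1 per the file headers. The deposited scanner values are background-corrected linear intensity values per miRNA (total gene signal), not normalised between arrays, and an undetected miRNA holds its error. The authors also deposited a processed log2 table, whose normalisation is not given in the sources used here beyond the names AgiMicroRna and RMA. Scaling to the 75th percentile over the 132 miRNAs detected on all arrays, a floor of 5.76 and log2 followed, and limma 3.58.1 in R 4.3.3 fitted 12 group means, with 12 residual degrees of freedom, to the 210 miRNAs detected on 3 arrays or more. P-values are two-sided and adjusted by Benjamini-Hochberg. An exact permutation test of 2 against 2 cannot go below 0.333. The fit was run on simulated normal values with known shifts, larger than any let-7 difference under the scaling used here. No slide, brightness or cell-composition effect was simulated. The run checks the code and cannot show how the fit does with differences of the size seen here. Normexp was run on the median spot signal, which the files hold. The members and lists were chosen with earlier results of these data known. Every member is named, with the relatives and markers listed. P-values measure the spread between arrays of a group, pooled over the 12 groups. Each array held a separate blood sample, so animal and array differences are mixed in it. It holds no spread between slides. The number of arrays limits the precision.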

Additional observations from a re-analysis of the deposited data

Results flagged for a closer look

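Changes in opposite directions under the same contrast were seen for 6 members at 1 hour and 1 at 34 days: every array of 1 arm lay above its group before therapy, and every array of another arm lay below. The same held for 26.7% of the 210 miRNAs at 1 hour and for 14.8% at 34 days. NOCIA was set against its own first sampling and the other arms against CIA before, which they share. The difference between arms was not tested. At 1 hour the change in ANE minus the change in MS was 0.36 for let-7a and 0.34 for let-7f. The change in NOCIA minus the change in MS was 0.71 for let-7b, 0.49 for let-7c and 0.25 for let-7i. For let-7e the change in ANE minus the change in NOCIA was 0.57. At 34 days the change in NOCIA minus the change in MTX was 0.48 for let-7b. Where MS was the lower side at 1 hour, the direction rested in part on the scaling. MS against CIA before kept its sign in 12 of 17 settings for let-7a and let-7f, 14 for let-7i and 15 for let-7c. For let-7b the sign was kept in 16 and turned only with no scaling. For let-7e the lower side was NOCIA, which these counts do not cover. The greater part of those settings kept the scaling used here, so these counts do not measure agreement among scalings. Most of these sides were compared across slides. Groups of 2 arrays are too small for a check for single far arrays.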

How the results depend on the processing

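The counts of let-7 members called were recomputed 429 times under 14 alternatives and with each of the 24 arrays left out, and 410 were the same as reported. The 19 that moved were in 4 of 23 results. In MS at 34 days against CIA before, where 1 member was called, the count was 0 with the 75th percentile over all miRNAs, with the 75th percentile without the let-7 members, with array weights, with no filter on detection, with only the arrays compared, with quantile normalization and under the study's threshold. It was 7 with no scaling between arrays (62.9% of all miRNAs called), and 3 with the authors' log2 table (33.3%). Those 3 were let-7a (0.57), let-7e (1.00) and let-7f (1.07), with limma adjusted p-values of 0.040, 0.047 and 0.047. let-7d (0.54) and let-7i (0.45) were not called there. Leaving out 1 array gave 0 to 3. With normexp the 1 member called was let-7b (-0.38), not let-7e. In MS at 34 days against PLA, where none was called, the count was 7 with no scaling (59% of all), 3 with no filter (60.9%) and 1 with only miRNAs detected on all arrays (27.3%), and 0 to 3 with 1 array left out. With no filter 1 member (let-7b) and 54.8% of all miRNAs were called in CIA against NOCIA before therapy. Leaving out 1 array gave 0 to 1 in MS at 1 hour against CIA before.

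Signs turned as follows. In MS at 1 hour against CIA before let-7b was 0.37 with no scaling, and let-7c was 0.0046 with the percentile without let-7 members and 0.56 with no scaling. In MS at 34 days against CIA before let-7b was 0.0052 with the percentile without let-7 members, 1.11 with no scaling and -0.19 to 0.020 with 1 array left out, the highest without MS at 34 days replicate 2. There let-7c was -0.074 with the percentile over all miRNAs, -0.12 with normexp and -0.13 with quantile normalization. let-7f was -0.067 with the percentile over all miRNAs and -0.017 to 0.28 with 1 array left out, the lowest without MS at 34 days replicate 1, and miR-125b-5p was 0.57 with no scaling. In MTX at 34 days against CIA before let-7b was 0.27 with no scaling. Across scalings the median difference of all 210 miRNAs ran from 0.0049 to 1.32 in MS at 34 days against CIA before, from 0.03 to 1.13 against PLA, and from -0.07 to 0.79 in MS at 1 hour against CIA before. The cause of these changes was not tested.

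The replicate numbers are not said to pair the samples. Over 66 pairs of groups the correlation of replicate differences had a median of -0.03, and 26 were over 0.1. With the replicate number as a block the count in MS at 34 days against CIA before stayed at 1 (let-7e, adjusted p = 0.037, over a range of 0.010 to 0.464 across its alternatives), and the block changed no other call of a member. Slide as a random block was not run, because each group lies on 1 slide and its mean absorbs the slide. The 75th percentile itself sits among bright miRNAs, and 6 of the 7 members lie above it on every array. With 2 arrays a group, differences of the size seen for most members could not be told from the spread between arrays.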
